A study of Homo sapiens with 20 samples.

Results

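The Hippo kinases, YAP, TAZ and the TEAD factors were described here as 10 genes, YAP1, WWTR1 (the gene of TAZ), TEAD1, TEAD2, TEAD3, TEAD4, VGLL4, LATS1, LATS2 and SAV1. They were chosen by name, as the rows of the RPKM table with these symbols, and all 10 were found among its 21201 symbols. The 5 established human tumor cell lines had been kept for 24 h with 1 µM G007-LK, which blocks the enzymes tankyrase 1 and 2, or with 0.01% DMSO, the control, before poly(A) RNA sequencing. Each line gave 2 G007-LK and 2 DMSO libraries, which the labels call biological replicates. The p-values thus rest on the spread between libraries of 1 line at 1 dose and 1 time. The test used, limma, draws the spread of each gene toward that of genes of similar level. In ABC-1 and UO-31 the intervals of the tested genes have the width of a spread taken almost wholly from those other genes. The study treats 4 lines as sensitive to tankyrase inhibition (TNKSi), namely COLO 320DM from a colorectal, UO-31 from a renal, OVCAR-4 from an ovarian and ABC-1 from a lung tumor, and uses the colorectal line RKO as the insensitive control. ABC-1 and RKO were grown in EMEM and the other lines in RPMI-1640. RPKM is defined as the number of reads of a gene scaled by the length of the gene and by the mapped reads of the library. A fold change is the difference of log2(RPKM + 0.5), G007-LK minus DMSO, and a gene is called where its adjusted p from limma with Benjamini-Hochberg adjustment over all genes of the line is below 0.05.

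The Hippo pathway is a kinase cascade that restrains growth when cells are crowded. The MST kinases, with the adaptor SAV1, activate LATS1 and LATS2, which phosphorylate YAP and TAZ so that these are held in the cytoplasm or degraded. Unphosphorylated YAP and TAZ enter the nucleus, where they have no DNA-binding domain of their own and act through the TEAD factors, and VGLL4 competes with them for TEAD. Tankyrases mark angiomotin proteins, which hold YAP back, for degradation, so a tankyrase inhibitor raises angiomotin protein. LATS2 and AMOTL2 are known target genes of YAP and TEAD and act as brakes on YAP. All values here are RNA levels in bulk cultures, in which fewer cells of a kind and less RNA per cell cannot be told apart.

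TEAD factors bind the 6-base motif GGAATG, or CATTCC on the other strand. The RefSeq promoter windows, which run from 250 bases before a transcript start to 50 after it, were searched for it on both strands, and 8 of the 10 genes had a window (15 windows in all). TEAD1 and TEAD4 had no window and were not searched. The motif was found in 2 of the 8 genes with a window, YAP1 and LATS2, and in 16.7% of 27305 genes (14% of 35116 windows). A match describes the letters only. Both sequences are shown because one of these genes, LATS2, was lower with G007-LK in some of the lines and the other, YAP1, was not called in any of them. The first 280 bases of each window are given, on the strand of the gene in GRCh38.p14, with the motif in capitals. The YAP1 window is chr11:102110197-102110476 on the plus strand, with the match 162 bases upstream of the start, and the LATS2 window is chr13:21061557-21061836 on the minus strand, with the match 9 bases downstream of it.
YAP1: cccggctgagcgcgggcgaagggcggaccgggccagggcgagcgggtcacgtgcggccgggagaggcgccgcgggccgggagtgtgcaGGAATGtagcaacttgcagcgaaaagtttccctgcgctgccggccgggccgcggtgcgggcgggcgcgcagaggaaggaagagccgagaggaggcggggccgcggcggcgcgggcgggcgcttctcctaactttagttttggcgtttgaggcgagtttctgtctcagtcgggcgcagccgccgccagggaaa
LATS2: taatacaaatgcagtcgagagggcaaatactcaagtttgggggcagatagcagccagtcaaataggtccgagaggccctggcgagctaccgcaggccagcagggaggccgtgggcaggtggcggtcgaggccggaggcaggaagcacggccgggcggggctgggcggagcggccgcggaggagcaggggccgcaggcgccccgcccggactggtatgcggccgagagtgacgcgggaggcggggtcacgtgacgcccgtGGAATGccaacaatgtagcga

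The libraries held 22835578 to 25417153 reads in the table, recovered from the spacing of the RPKM values. Apart from TEAD2 in ABC-1, the 10 genes had 283 to 8385 reads in a library, which gives a counting error of 1.09 to 5.94%. One read was worth 2.19 to 2.46 times as much RPKM in OVCAR-4 as in the COLO 320DM DMSO replicate 1, and 1 to 1.5 times in the other lines, so the levels of the lines are given after rescaling. Within lines the same scale moved the median fold change of all genes, which in ABC-1 was -0.14, against 0.01 when the libraries were set to equal recovered reads, and in OVCAR-4 was -0.11, against -0.01. The G007-LK replicates of UO-31 stood apart from each other (1.5 and 1.22 on the same scale), with a median difference of -0.29 log2 units, replicate 2 minus replicate 1. Markers of the labelled tissue were checked, on RPKM rescaled to the same sum in every library (a TPM-like scale, written TPM), with a mean of at least 1 TPM taken as present. Of the colon markers 2 of 5 were present in COLO 320DM (summed level 1363 to 1926 TPM) and 1 of 5 in RKO (16.6 to 18.2 TPM, CDX1 at 0), while UO-31 had 4 of 5 kidney markers (201 to 250.4 TPM) and OVCAR-4 had 4 of 5 ovarian markers (160.3 to 193 TPM). These lists did not set the tissues apart, since OVCAR-4 also had 3 of 5 kidney markers (190.5 to 222 TPM) and ABC-1 a higher ovarian sum (273 to 402 TPM, 2 of 5 markers). The lung marker NKX2-1 had no entry in the data. In ABC-1 none of the other 4 lung markers was present, and SFTPC was at 0. In OVCAR-4, by contrast, the lung list summed to 72.3 to 81.9 TPM (1 marker present). HBB of the blood and endothelium list was listed at 0 in all 20 libraries. Markers that pure cultures should lack summed to at most 14.1 TPM in any library, 2 of them, LYZ (0.32) and CDH5 (0.29), were called higher with G007-LK in OVCAR-4, and their part in the results was not tested.

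TEAD4, the TEAD factor that also sets the fate of the trophectoderm in the mouse embryo, was lower with G007-LK in all 4 sensitive lines and was the only one of the 10 genes of which this held. It lies at chr12:3068496-3149842 (GRCh37, plus strand). In ABC-1, TEAD4 had 13.7 and 14.1 RPKM with G007-LK, against 33.1 and 34.6 RPKM with DMSO, a log2 fold change of -1.25 ± 0.09 (SE, n = 2 and 2, limma adjusted p 8.7e-42). Both treated libraries lay far below both controls. In UO-31 it had 13.5 and 11.9 RPKM with G007-LK, against 20.5 and 22.4 RPKM with DMSO (-0.73 ± 0.19, limma adjusted p 0.0017). In COLO 320DM it had 25.9 and 26.3 RPKM with G007-LK, against 32.8 and 33.7 RPKM with DMSO (-0.35 ± 0.10, limma adjusted p 0.023). In OVCAR-4 it had 28.2 and 32.3 RPKM with G007-LK, against 36.6 and 37.3 RPKM with DMSO (-0.29 ± 0.06, limma adjusted p 0.0023). The groups did not overlap in any of these 4 lines. In RKO the libraries overlapped, with 18.8 and 20.5 RPKM for G007-LK, against 20.5 and 21.3 RPKM for DMSO (-0.09 ± 0.04, limma adjusted p 0.29). In OVCAR-4 the fall of TEAD4 was smaller without G007-LK replicate 1 (-0.19) and with equal recovered reads (-0.18, limma adjusted p 0.0201), and was still called. Leaving out 1 library kept the direction of TEAD4 in the 4 sensitive lines but ended the call in COLO 320DM without either G007-LK library (-0.34 and -0.36, limma adjusted p 0.433 and 0.401) and in UO-31 without either DMSO library (-0.79 and -0.67, limma adjusted p 0.854 and 1.00). In COLO 320DM the call was also lost with no filter on low values (limma adjusted p 0.063).

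**Figure D1:**
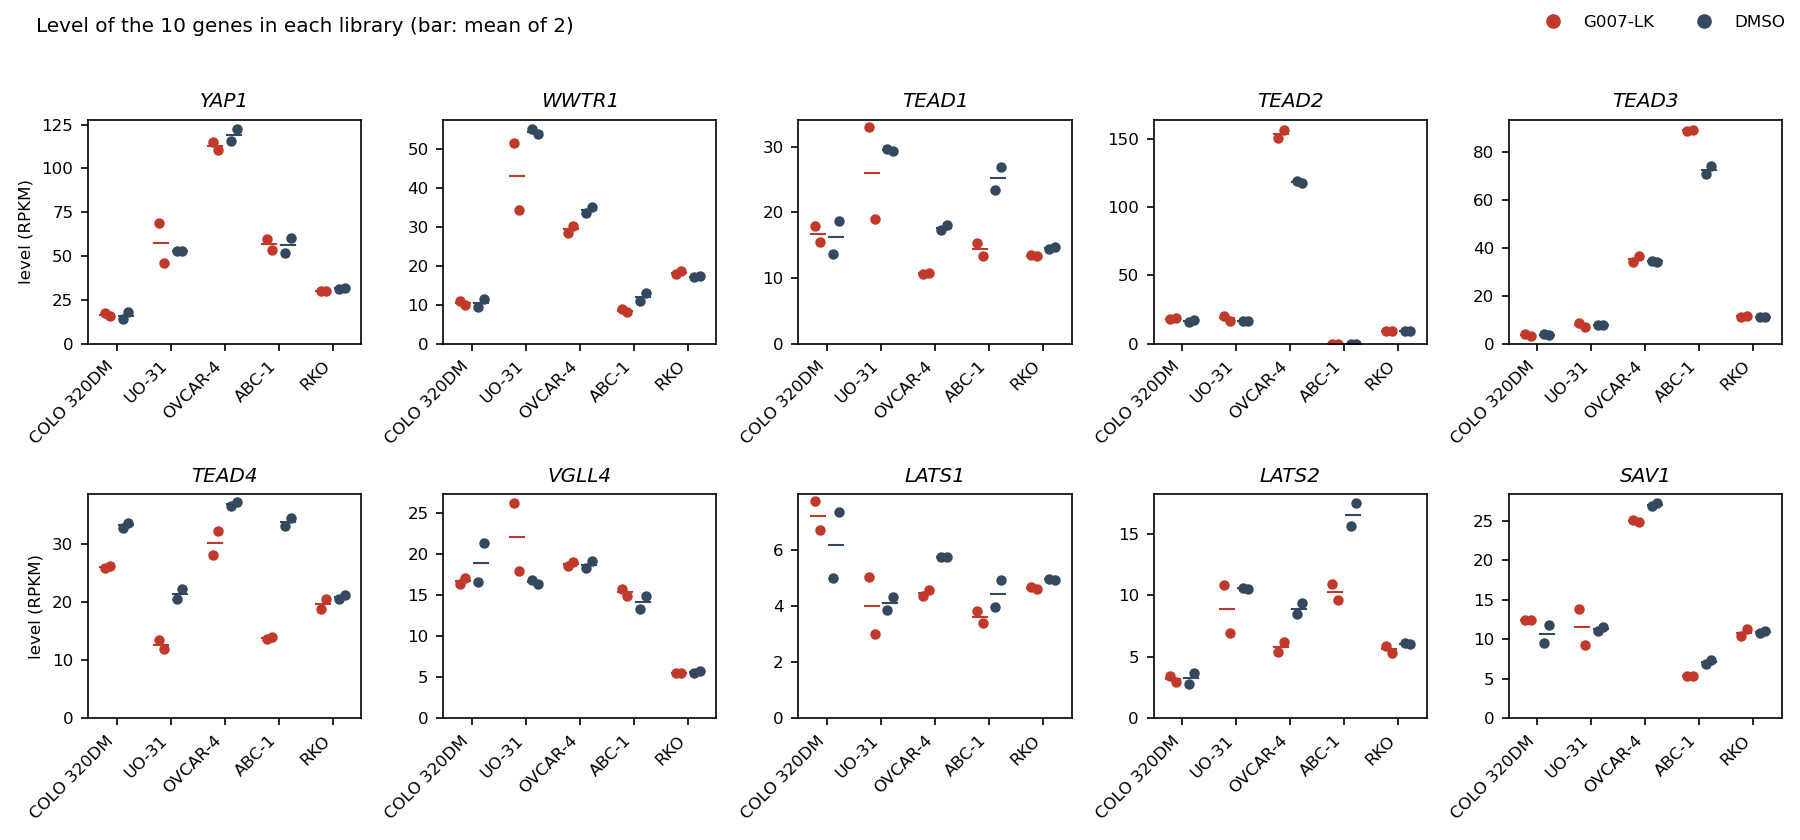
Level of the 10 genes in RPKM (vertical axes, linear, from 0) in each of the 20 libraries, by cell line, with G007-LK libraries in red on the left and DMSO libraries in dark blue on the right of each line and a bar at the mean of 2. TEAD4 of ABC-1 shows 13.7 and 14.1 RPKM with G007-LK, against 33.1 and 34.6 RPKM with DMSO, and in UO-31 the 2 G007-LK points lie far apart for most genes.

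TEAD1, needed for heart growth in the mouse embryo, fell in OVCAR-4 and ABC-1. It lies at chr11:12695968-12966284 (GRCh37, plus strand). OVCAR-4 had 10.6 and 10.7 RPKM with G007-LK, against 17.3 and 18.1 RPKM with DMSO (-0.70 ± 0.06, limma adjusted p 2.7e-06). ABC-1 had 15.4 and 13.3 RPKM with G007-LK, against 23.4 and 27.0 RPKM with DMSO (-0.79 ± 0.09, limma adjusted p 2.5e-16). In both lines all treated libraries were below all controls. RKO had 13.5 and 13.3 RPKM with G007-LK, against 14.3 and 14.8 RPKM with DMSO, which also did not overlap but gave a change of only -0.11 ± 0.04 and no call (limma adjusted p 0.12). In COLO 320DM the groups overlapped (17.9 and 15.5 RPKM with G007-LK, against 13.6 and 18.7 RPKM with DMSO). In UO-31 the G007-LK replicates had 33.0 and 18.9 RPKM, one above and one below the DMSO libraries at 29.6 and 29.3 RPKM.

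TEAD2, expressed from the first divisions of the mouse embryo, was the only TEAD gene that rose in OVCAR-4. It lies at chr19:49843852-49865714 (GRCh37, minus strand). OVCAR-4 had 150.4 and 156.2 RPKM with G007-LK, against 119.2 and 117.9 RPKM with DMSO (0.37 ± 0.04, limma adjusted p 9.4e-06). The groups were apart in that line, and TEAD2 was there the TEAD gene with the highest level. COLO 320DM had 18.0 and 18.5 RPKM with G007-LK, against 15.8 and 17.0 RPKM with DMSO (0.15 ± 0.12, not called). UO-31 had 19.9 and 16.9 RPKM with G007-LK, against 16.7 and 16.4 RPKM with DMSO (0.14 ± 0.19, not called). The groups did not overlap in these 2 lines either, but the changes were within their error. RKO overlapped, with 9.31 and 9.23 RPKM with G007-LK, against 9.23 and 9.52 RPKM with DMSO (-0.01 ± 0.04). ABC-1 was near 0, with 2 and 3 reads in the G007-LK libraries, against 3 and 3 reads in the DMSO libraries, and TEAD2 was not tested there.

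TEAD3, found at high levels in placenta, was high in ABC-1 and rose there. It lies at chr6:35441374-35464856 (GRCh37, minus strand). ABC-1 had 88.9 and 89.4 RPKM with G007-LK, against 70.8 and 74.4 RPKM with DMSO (0.30 ± 0.07, limma adjusted p 6.2e-05), and the groups were apart. This rise was 0.46 with equal recovered reads. In the other lines they overlapped and none was called, with log2 fold changes of -0.04 (COLO 320DM), -0.03 (UO-31), 0.04 (OVCAR-4) and 0.03 (RKO). With equal recovered reads the OVCAR-4 value was 0.15 and called (limma adjusted p 0.0202).

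WWTR1, which encodes the coactivator TAZ, fell in OVCAR-4 and ABC-1, while YAP1 was not called in any line. WWTR1 lies at chr3:149235022-149454501 (minus strand) and YAP1 at chr11:101981178-102104155 (plus strand), both in GRCh37. ABC-1 had 8.80 and 8.07 RPKM of WWTR1 with G007-LK, against 10.9 and 12.9 RPKM with DMSO (-0.47 ± 0.11, limma adjusted p 4.7e-05). OVCAR-4 had 28.5 and 30.2 RPKM of WWTR1 with G007-LK, against 33.6 and 35.1 RPKM with DMSO (-0.23 ± 0.05, limma adjusted p 0.0033). The groups were apart in both lines, and the OVCAR-4 call was lost without DMSO replicate 2 (-0.19, limma adjusted p 0.054) and in 1 fit over all 20 libraries (0.244). The OVCAR-4 change of WWTR1 was -0.12 with equal recovered reads (limma adjusted p 0.0494). In UO-31, WWTR1 had 51.4 and 34.4 RPKM with G007-LK, against 55.1 and 53.7 RPKM with DMSO (-0.37 ± 0.15, limma adjusted p 0.082), apart but not called. RKO had 17.8 and 18.6 RPKM of WWTR1 with G007-LK, against 17.0 and 17.3 RPKM with DMSO (0.08 ± 0.04, apart but not called). COLO 320DM overlapped, with 11.1 and 9.83 RPKM with G007-LK, against 9.34 and 11.3 RPKM with DMSO.

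YAP1, which encodes the coactivator YAP, had 59.9 and 53.5 RPKM in ABC-1 with G007-LK, against 51.8 and 60.5 RPKM with DMSO (0.02, 95% interval -0.13 to 0.16). OVCAR-4 had 114.9 and 110.3 RPKM with G007-LK, against 115.5 and 122.5 RPKM with DMSO (-0.08, 95% interval -0.17 to 0.01). RKO had 30.2 and 30.0 RPKM with G007-LK, against 31.2 and 31.9 RPKM with DMSO (-0.07, 95% interval -0.13 to 0.00). In these 3 lines a change of more than 0.17 log2 units in either direction lay outside the interval. COLO 320DM had 17.4 and 15.6 RPKM with G007-LK, against 14.05 and 17.9 RPKM with DMSO (0.05, 95% interval -0.23 to 0.33). In UO-31 the G007-LK replicates had 68.6 and 46.0 RPKM, on either side of the DMSO libraries at 52.8 and 52.6 RPKM. With equal recovered reads YAP1 was called higher in ABC-1 (0.18, limma adjusted p 0.016).

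VGLL4, the cofactor that competes with YAP for TEAD, was not called in any line. It lies at chr3:11597543-11812824 (GRCh37, minus strand). UO-31 had 26.2 and 17.9 RPKM with G007-LK, against 16.9 and 16.3 RPKM with DMSO (0.38 ± 0.18, limma adjusted p 0.17), with both treated libraries above both controls. The groups overlapped in the other 4 lines, with log2 fold changes of -0.17 (COLO 320DM), 0.01 (OVCAR-4), 0.12 (ABC-1) and -0.03 (RKO). VGLL4 was sensitive to the scale, and with equal recovered reads it was called higher in UO-31 (0.43, limma adjusted p 0.015) and in ABC-1 (0.27, limma adjusted p 0.0015).

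LATS2, the LATS kinase that YAP itself induces, fell in OVCAR-4 and ABC-1. It lies at chr13:21547175-21635725 (GRCh37, minus strand). ABC-1 had 10.9 and 9.65 RPKM with G007-LK, against 15.6 and 17.5 RPKM with DMSO (-0.66 ± 0.10, limma adjusted p 4.2e-10). OVCAR-4 had 5.43 and 6.23 RPKM with G007-LK, against 8.45 and 9.42 RPKM with DMSO (-0.58 ± 0.09, limma adjusted p 0.00017). Treated libraries were below all controls in both lines. In UO-31 the replicates had 10.9 and 6.91 RPKM with G007-LK, against 10.6 and 10.6 RPKM with DMSO, so 1 treated library lay at the control level and 1 below it. RKO had 5.89 and 5.34 RPKM with G007-LK, against 6.15 and 6.02 RPKM with DMSO (-0.11 ± 0.06, limma adjusted p 0.32), and COLO 320DM overlapped (-0.02 ± 0.16).

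LATS1, the other LATS kinase, had the lowest RPKM of the 10 genes in UO-31, OVCAR-4 and RKO and fell in OVCAR-4. It lies at chr6:149979289-150039241 (GRCh37, minus strand). OVCAR-4 had 4.37 and 4.57 RPKM with G007-LK, against 5.74 and 5.74 RPKM with DMSO (-0.33 ± 0.09, limma adjusted p 0.0067). ABC-1 had 3.82 and 3.39 RPKM with G007-LK, against 3.95 and 4.92 RPKM with DMSO, apart but not called (-0.26 ± 0.12, limma adjusted p 0.061). In 1 fit over all 20 libraries the OVCAR-4 call was lost (limma adjusted p 0.189). The log2 fold change was -0.09 (RKO), 0.23 (COLO 320DM) and -0.06 (UO-31) in the others, none called.

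SAV1, the adaptor of the MST kinases, fell in ABC-1. It lies at chr14:51098776-51135024 (GRCh37, minus strand). ABC-1 had 5.32 and 5.41 RPKM with G007-LK, against 6.85 and 7.45 RPKM with DMSO (-0.38 ± 0.12, limma adjusted p 0.0027). The groups were apart, and the call was lost without either G007-LK library (-0.37 and -0.39, limma adjusted p 0.095 and 0.077). The SAV1 change in ABC-1 was -0.23 with equal recovered reads, and called (limma adjusted p 0.016). OVCAR-4 had 25.1 and 24.8 RPKM with G007-LK, against 26.9 and 27.3 RPKM with DMSO (-0.12 ± 0.05, limma adjusted p 0.0755). COLO 320DM had 12.4 and 12.5 RPKM with G007-LK, against 9.51 and 11.9 RPKM with DMSO (0.22 ± 0.14, not called), and after setting equal recovered reads this difference was called higher (0.28, limma adjusted p 0.019). UO-31 and RKO overlapped and were not called (limma adjusted p 0.999 and 0.923).

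Counted over the genes, ABC-1 had 6 of 9 tested called (5 lower and 1 higher), where 57.9% of all genes of the line were called (41.2% lower and 16.6% higher). OVCAR-4 had 6 of 10 called (5 lower and 1 higher), where 51.5% of all genes were called (39% lower and 12.6% higher). These shares were close to the background of each line, so the counts say little of the 10 genes as a group. COLO 320DM had 1 of 10 called, TEAD4, where 19.3% of all genes were called (11.6% lower and 7.7% higher). UO-31 had 1 of 10 called, TEAD4 as well, where 13.4% of all genes were called (8.63% lower and 4.79% higher). RKO had 0 of 10 called by limma, where 4.11% of all genes were called (2.75% lower and 1.36% higher, 432 genes in all, and 2268 at an unadjusted p below 0.05). On the reads recovered from the table, limma-voom called TEAD1 (-0.09, adjusted p 0.032) and WWTR1 (0.11, adjusted p 0.025) in RKO.

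**Figure D2:**
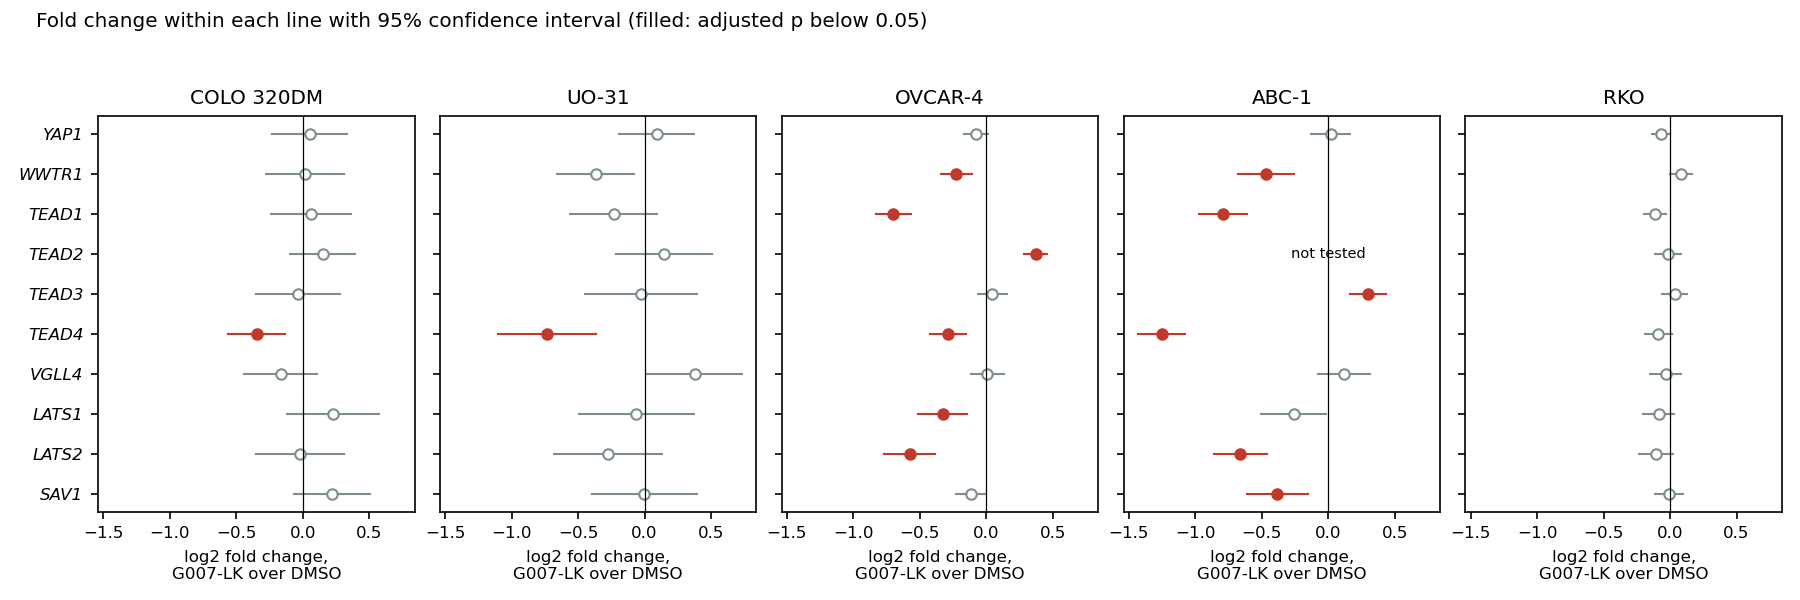
Log2 fold change of G007-LK over DMSO (horizontal axes, log2(RPKM + 0.5) scale) for the 10 genes in each line, with 95% confidence intervals from limma and filled points where the adjusted p was below 0.05. TEAD4 is filled in the 4 sensitive lines at -0.35, -0.73, -0.29 and -1.25, no point is filled in RKO, and TEAD2 of ABC-1 was not tested.

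In UO-31 the result depended on which G007-LK library was used. In this paragraph lower and higher give only the sign of the change, whether called or not. Without G007-LK replicate 1 the genes of the line were shifted down as a whole (median -0.20). Of the 10 genes, TEAD4 (-0.82), WWTR1 (-0.66), TEAD1 (-0.62), LATS2 (-0.58) and LATS1 (-0.39) were then lower. So were SAV1 (-0.28), YAP1 (-0.19) and TEAD3 (-0.17), while VGLL4 (0.11) and TEAD2 (0.03) were higher. Without G007-LK replicate 2 the genes of the line were shifted up (median 0.11). TEAD4 (-0.65) and WWTR1 (-0.08) were then lower. Higher were VGLL4 (0.64), YAP1 (0.38), SAV1 (0.27), LATS1 (0.27), TEAD2 (0.26), TEAD1 (0.16), TEAD3 (0.11) and LATS2 (0.04). Most of the 10 genes thus moved in the direction of the whole library. Only TEAD4 and WWTR1 were below DMSO with either library alone, and WWTR1 barely so without replicate 2.

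Over the 4 sensitive lines together, with the line as a block, 4 of the 9 genes tested were called and all 4 were lower, where 44.1% of all genes were called (33.8% lower and 10.2% higher). TEAD4 changed by -0.66 ± 0.10 (limma adjusted p 0.00012), TEAD1 by -0.41 ± 0.13 (0.013), LATS2 by -0.38 ± 0.10 (0.0067) and WWTR1 by -0.26 ± 0.09 (0.020). YAP1 changed by 0.02 ± 0.07, TEAD3 by 0.07 ± 0.06, VGLL4 by 0.08 ± 0.09, SAV1 by -0.07 ± 0.09 and LATS1 by -0.11 ± 0.11, none called. With equal recovered reads, and with limma-voom, YAP1, TEAD3 and VGLL4 were called as well, each of them higher. Their highest values over the alternatives were 0.12 (YAP1), 0.22 (TEAD3) and 0.18 (VGLL4). The TEAD1 and LATS2 calls needed both OVCAR-4 and ABC-1: without OVCAR-4 their limma adjusted p was 0.120 and 0.066, and without ABC-1 it was 0.138 and 0.085. WWTR1 was lost without UO-31 (limma adjusted p 0.053), without OVCAR-4 (0.070) or without ABC-1 (0.151). TEAD4 was called in every alternative listed under the processing, with a highest limma adjusted p of 0.0029.

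To learn whether lines differed in their response, the difference of the fold changes was tested for each pair of lines, adjusted over all genes and all 10 pairs. Of 96 tests of the 10 genes, 21 were called, where 19.7% of all tests were. The 3 largest called differences were those of TEAD4, at -1.17 ± 0.09 for ABC-1 minus RKO, 0.96 ± 0.11 for OVCAR-4 minus ABC-1 and 0.91 ± 0.10 for COLO 320DM minus ABC-1. TEAD1 came next, at 0.85 ± 0.20 for COLO 320DM minus ABC-1 and 0.76 ± 0.17 for COLO 320DM minus OVCAR-4. The latter was not called in 1 fit over 20 libraries (limma adjusted p 0.058). TEAD4 also differed for UO-31 minus ABC-1 (0.52 ± 0.15), a call that ended without any 1 of the ABC-1 libraries or of the UO-31 DMSO libraries (limma adjusted p 0.071 to 0.152). The fall of TEAD4 in UO-31 also differed from RKO (-0.64 ± 0.15, limma adjusted p 0.0115). That call ended without UO-31 DMSO replicate 2 (-0.58), RKO DMSO replicate 1 (-0.62) or RKO G007-LK replicate 2 (-0.58). The falls in COLO 320DM and OVCAR-4 were not shown to differ from RKO (-0.26, 95% interval -0.47 to -0.05, limma adjusted p 0.088, and -0.20, 95% interval -0.39 to -0.01, limma adjusted p 0.13). TEAD1 differed from RKO in OVCAR-4 (-0.59 ± 0.07) and ABC-1 (-0.68 ± 0.11), as did LATS2 (-0.47 ± 0.11 and -0.55 ± 0.12) and WWTR1 (-0.31 ± 0.06 and -0.55 ± 0.11). None of these differences was called in 1 fit over 20 libraries. There the limma adjusted p was 0.146 and 0.091 for TEAD1, 0.189 and 0.117 for LATS2 and 0.333 and 0.073 for WWTR1. With RKO, ABC-1 had 6 of 9 genes called, where 42.3% of all genes were called, and OVCAR-4 had 4 of 10, where 32.1% were. The pairs share libraries and so are not independent.

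The composition of the TEAD family does not depend on the scale of a library and was read as each gene's share of the summed TEAD RPKM, with no test. In ABC-1 the share of TEAD4 was 11.6 and 12% with G007-LK, against 26.0 and 25.4% with DMSO, while that of TEAD3 was 75.3 and 76.5% with G007-LK, against 55.6 and 54.7% with DMSO. In UO-31 the share of TEAD4 was 18.0 and 21.8% with G007-LK, against 27.4 and 29.4% with DMSO. In OVCAR-4 it was 12.6 and 13.7% with G007-LK, against 17.6 and 18.0% with DMSO. In all these lines the TEAD4 share was lower in both treated libraries. COLO 320DM had 39.2 and 41.3% with G007-LK, against 49.6 and 46.1% with DMSO. RKO overlapped, with 35.6 and 37.6% with G007-LK, against 37.3 and 37.5% with DMSO. In OVCAR-4 the share of TEAD2 was 67.3 and 66.2% with G007-LK, against 57.4 and 56.8% with DMSO, and TEAD2 was the main TEAD there.

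YAP1 over WWTR1 was likewise free of the scale. In ABC-1 it was 6.81 and 6.64 with G007-LK, against 4.77 and 4.69 with DMSO. UO-31 had 1.33 and 1.34 with G007-LK, against 0.958 and 0.980 with DMSO. The 2 UO-31 treated libraries, which disagreed on the RPKM scale, gave nearly one ratio. OVCAR-4 had 4.03 and 3.65 with G007-LK, against 3.43 and 3.48 with DMSO. RKO lay the other way, with 1.70 and 1.61 with G007-LK, against 1.83 and 1.85 with DMSO. COLO 320DM had 1.57 and 1.58 with G007-LK, against 1.5 and 1.58 with DMSO, which overlap.

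**Figure D3:**
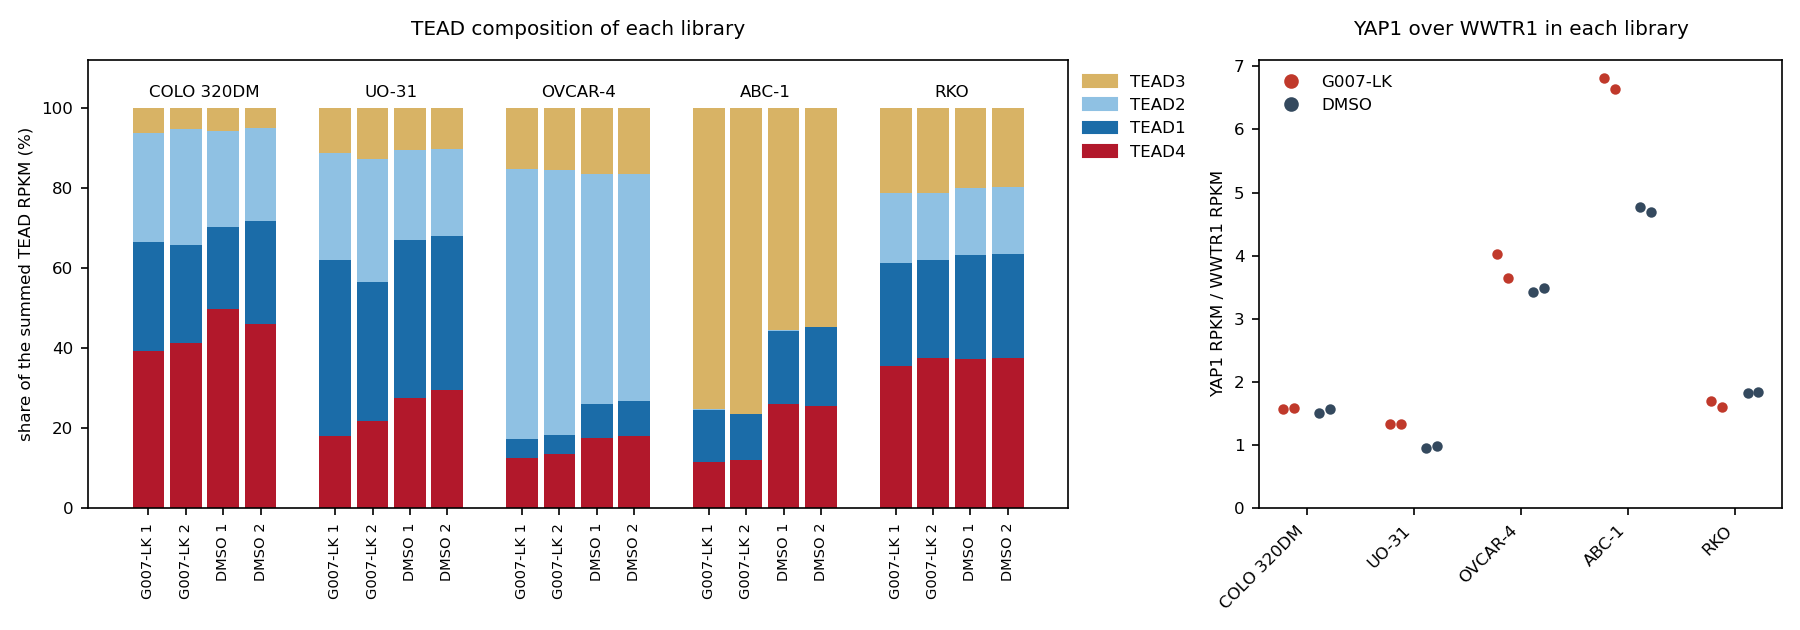
Left: share of TEAD4, TEAD1, TEAD2 and TEAD3 (bottom to top, percent of the summed TEAD RPKM) in each library. Right: YAP1 RPKM over WWTR1 RPKM in each library, G007-LK in red and DMSO in dark blue. The TEAD4 share in ABC-1 is 11.6 and 12% with G007-LK, against 26.0 and 25.4% with DMSO, and the ratio of YAP1 to WWTR1 there is 6.81 and 6.64 with G007-LK, against 4.77 and 4.69 with DMSO.

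The lines also differed in the level of the 10 genes without the inhibitor. Levels are given on the same TPM-like scale, because RPKM itself is scaled up in OVCAR-4. Of 100 pairs of lines and genes, 90 were called on this scale, where 82.8% of all such tests were called, and 74 on the RPKM scale, where 81.5% were. On both scales with the same sign 67 were called, and 4 were called in opposite directions, 1 each of TEAD4, VGLL4, LATS1 and LATS2. TEAD2 had the widest spread, with 131.4 ± 2.49 TPM (SD, n = 2, also for the levels that follow) for OVCAR-4. COLO 320DM held 41.4 ± 0.00795, UO-31 32.7 ± 0.263 and RKO 22.7 ± 0.49, and each neighbour in this order differed. ABC-1 lay near 0, at 0.115 TPM from 3 reads in each DMSO library, too few to give a spread. The TEAD2 pairs with ABC-1, counted above, were tested only through the level of the other lines. TEAD3 came next, with 150.3 ± 0.217 TPM in ABC-1, 38.2 ± 0.822 in OVCAR-4, 26.9 ± 0.421 in RKO, 15.6 ± 0.333 in UO-31 and 9.63 ± 0.792 in COLO 320DM, a 15.6-fold range in which all neighbours differed. ABC-1 thus held the highest level of TEAD3 and almost no TEAD2.

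TEAD4 had a narrow range of 2.05-fold, with 84.0 ± 2.79 TPM in COLO 320DM, 70.0 ± 0.12 in ABC-1, 50.6 ± 1.30 in RKO, 42.4 ± 3.56 in UO-31 and 41.0 ± 0.145 in OVCAR-4, of which the last 2 were not called different (limma adjusted p 0.48). TEAD1 was highest in UO-31 (58.2 ± 0.973 TPM) and ABC-1 (52.0 ± 3.54), which were not called different (limma adjusted p 0.14), followed by COLO 320DM (40.6 ± 7.01), RKO (35.2 ± 0.73) and OVCAR-4 (19.6 ± 0.41). COLO 320DM and RKO were not called different in TEAD1 (limma adjusted p 0.084). The order of TEAD4 on the RPKM scale put OVCAR-4 first, at 37.0 RPKM, so its place depended on the scaling.

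YAP1 was highest in OVCAR-4 (131.9 ± 4.01 TPM), then ABC-1 (116.1 ± 8.91) and UO-31 (104.2 ± 2.05), which were not called different (limma adjusted p 0.077), RKO (76.3 ± 1.33) and COLO 320DM (40.1 ± 4.70). WWTR1 stood at 107.5 ± 0.388 TPM in UO-31, 41.5 ± 0.496 in RKO, 38.1 ± 0.752 in OVCAR-4, 26.0 ± 2.19 in COLO 320DM and 24.5 ± 2.15 in ABC-1, where RKO and OVCAR-4 (limma adjusted p 0.13) and COLO 320DM and ABC-1 (0.30) were not called different. UO-31 was the only line in which the DMSO libraries held slightly more WWTR1 than YAP1. VGLL4 was highest in COLO 320DM (47.6 ± 5.84 TPM) and lowest in RKO (13.6 ± 0.42), with UO-31 (32.8 ± 0.0545) and ABC-1 (29.2 ± 1.40) not called different (limma adjusted p 0.075) and OVCAR-4 at 20.7 ± 0.425.

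Of the kinases, LATS2 was highest in ABC-1 (34.3 ± 1.6 TPM), then UO-31 (20.9 ± 0.368), RKO (14.7 ± 0.216), OVCAR-4 (9.90 ± 0.645) and COLO 320DM (8.18 ± 1.18), and all neighbours differed. LATS1 was highest in COLO 320DM (15.5 ± 3.38), then RKO (11.99 ± 0.0534), ABC-1 (9.16 ± 1.12), UO-31 (8.10 ± 0.792) and OVCAR-4 (6.37 ± 0.069), where ABC-1 and UO-31 were not called different (limma adjusted p 0.27). COLO 320DM was thus first in LATS1 and last in LATS2. SAV1 had 30.0 ± 0.019 TPM in OVCAR-4, 26.9 ± 2.81 in COLO 320DM and 26.4 ± 0.393 in RKO, whose neighbours were not called different (limma adjusted p 0.070 and 0.78), then 22.4 ± 1.27 in UO-31 and 14.8 ± 0.39 in ABC-1.

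**Figure D4:**
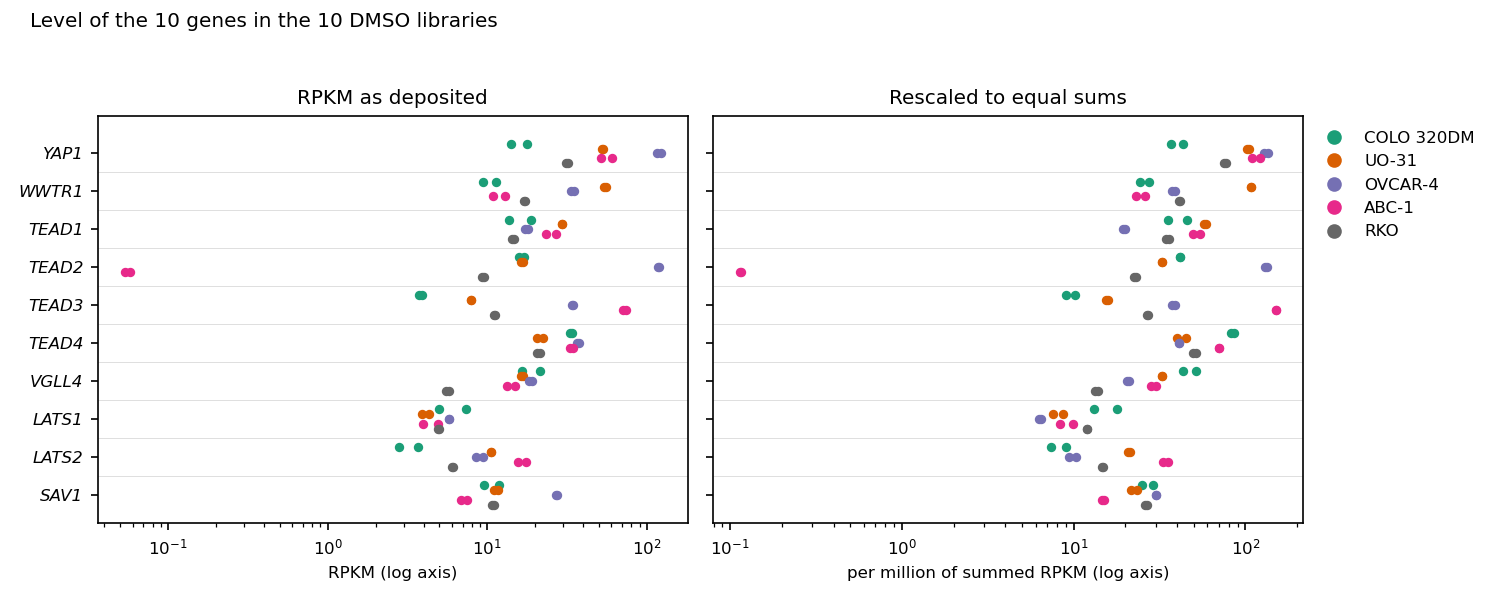
Level of the 10 genes in the 10 DMSO libraries on a log axis, as RPKM on the left and rescaled to equal sums (TPM-like) on the right, with 1 colour per line and 1 point per library. OVCAR-4 moves left relative to the other lines after rescaling, and TEAD2 of ABC-1 lies near 0.1 while TEAD2 of OVCAR-4 lies at 131.4 TPM.

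Across all 20 libraries the gene with the pattern most like each of the 10 was sought among 14199 genes, by Pearson r of log2(RPKM + 0.5), as a description over libraries that share 5 lines and their scale. The nearest genes were RER1 for YAP1 (0.99), PARVA for WWTR1 (0.99), PAK2 for TEAD1 (0.95), HOXB6 for TEAD2 (1.00), LY6E for TEAD3 (0.99), RANBP1 for TEAD4 (0.98), THSD4 for VGLL4 (0.98), AKAP11 for LATS1 (0.94), ERLIN1 for LATS2 (0.98) and CERS2 for SAV1 (0.99). Among the 10 genes the closest pair was TEAD2 and SAV1 (0.93), and that of LATS1 and LATS2 was -0.53. On the rescaled levels only PAK2 for TEAD1 and RANBP1 for TEAD4 were again the nearest genes.

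The other kinases and adaptors of the pathway were read from a list of 33 genes. In OVCAR-4, 17 of 30 tested fell and 3 rose (STK38L, RASSF4 and MAP4K2), where 39% of all genes fell and 12.6% rose. In ABC-1, 17 of 29 fell and 2 rose (RASSF5 and FRMD6), where 41.2% of all genes fell and 16.6% rose. The median log2 fold change of the list was -0.23 in OVCAR-4 and -0.35 in ABC-1, against -0.11 and -0.14 over all genes. AMOTL2 was the 1 of 28 that fell in COLO 320DM, where 11.6% of all genes fell. RASSF1, AMOTL2 and WWC1 were the 3 of 31 that fell in UO-31, where 8.63% of all genes fell, and AMOTL2 and FRMD6 the 2 of 25 in RKO, where 2.75% fell. In UO-31 calls of the list were mostly lower without G007-LK replicate 1 and mostly higher without replicate 2. The median of all genes was -0.20 and 0.11 in those fits. In COLO 320DM calls were mostly higher without DMSO replicate 2 and lower without DMSO replicate 1, where the median of all genes was 0.07 and -0.10. Calls were lost without either UO-31 DMSO library and without either COLO 320DM G007-LK library. With equal recovered reads the COLO 320DM count was 3 lower and 7 higher, where 1824 of 11279 genes were lower and 2623 higher. The ABC-1 count was then 14 lower and 8 higher, where 3465 of 10910 genes were lower and 3514 higher, so these splits depended on the scaling. The largest changes were in ABC-1: RASSF5, a RAS association protein that binds the MST kinases, had 4.41 and 3.75 RPKM with G007-LK, against 1.01 and 1.14 RPKM with DMSO (1.54 ± 0.13). AJUBA, a LIM protein that restrains LATS, had 2.80 and 2.64 RPKM with G007-LK, against 8.04 and 8.67 RPKM with DMSO (-1.46 ± 0.12). WTIP, a related LIM protein, had 4.99 and 5.93 RPKM with G007-LK, against 12.7 and 14.1 RPKM with DMSO (-1.23 ± 0.11).

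The core upstream genes STK3 and STK4 (the MST kinases), MOB1A (the LATS cofactor) and NF2 (which brings LATS to the membrane) were picked from this list after their values had been seen, so that their direction is no result about the list, of which other members rose. They were called lower in ABC-1 (-0.64, -0.48, -0.49 and -0.85) and in OVCAR-4 (-0.43, -0.27, -0.39 and -0.58), where 41.2% and 39% of all genes were called lower, and none was called in COLO 320DM, UO-31 or RKO.

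The STRIPAK phosphatase complex, which removes activating phosphates from the MST kinases, was read as 18 genes. In ABC-1 11 of 16 tested fell and none rose, where 41.2% of all genes fell, and in OVCAR-4 9 of 18 fell and none rose, where 39% did. With equal recovered reads 6 of 16 were lower in ABC-1, where 3465 of 10910 genes were. In OVCAR-4 5 of 18 were then lower and 1 higher, where 2984 of 12425 genes were lower and 2921 higher. Fewer of the list were lower in ABC-1 without either of its G007-LK libraries. The medians were -0.27 and -0.20, against -0.14 and -0.11 over all genes. SIKE1 was the 1 of 17 that rose in COLO 320DM (0.44 ± 0.13), where 7.7% of all genes rose. STRIP2 was the 1 of 17 that rose in RKO (0.28 ± 0.04), where 1.36% did. None of 17 was called in UO-31 by limma, where 13.4% of all genes were. With equal recovered reads 2 were lower there, where 1762 of 11851 genes were. Most were lower without UO-31 G007-LK replicate 1, where the median of all genes was -0.20, and calls went both ways without replicate 2. The largest changes were in ABC-1, in STK24 (-0.54), PPP2R1B (-0.53) and STRN (-0.45). The 14-3-3 proteins, which hold phosphorylated YAP and TAZ in the cytoplasm, and the genes of their degradation made a list of 14 genes. In ABC-1 10 of 14 fell and 2 rose (BTRC and CSNK1D), where 41.2% of all genes fell and 16.6% rose, with a median of -0.27, against -0.14 over all genes. In OVCAR-4 8 of 14 fell and 1 rose (SFN, 0.43 ± 0.04), where 39% of all genes fell, with a median of -0.12, against -0.11 over all genes. With equal recovered reads 6 were lower and 3 higher in ABC-1, where 3465 of 10910 genes were lower and 3514 higher. In OVCAR-4 4 were then lower and 4 higher, where 2984 of 12425 genes were lower and 2921 higher. COLO 320DM had 3 of 13 lower (YWHAG, CUL1 and YWHAE), where 11.6% of all genes were. UO-31 had 3 of 14 lower (SFN, YWHAH and YWHAE), where 8.63% were, and RKO 1 of 14 (YWHAE), where 2.75% were. In UO-31 more of the list was lower without G007-LK replicate 1, where the median of all genes was -0.20. Calls went both ways without G007-LK replicate 2 and were lost without either DMSO library. YWHAH, a 14-3-3 protein, had 33.4 and 34.0 RPKM in ABC-1 with G007-LK, against 57.3 and 64.3 RPKM with DMSO (-0.84 ± 0.08). BTRC, a receptor subunit of the ubiquitin ligase that degrades YAP and TAZ, had 16.1 and 14.3 RPKM there with G007-LK, against 7.92 and 9.19 RPKM with DMSO (0.79 ± 0.10), and YWHAQ changed by -0.51 ± 0.05.

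VGLL1, a TEAD cofactor related to VGLL4, fell where it was expressed. OVCAR-4 had 12.9 and 12.2 RPKM with G007-LK, against 30.4 and 32.6 RPKM with DMSO (-1.29 ± 0.06, limma adjusted p 1.7e-08). ABC-1 had 223 and 231 RPKM with G007-LK, against 339 and 343 RPKM with DMSO (-0.59 ± 0.05, limma adjusted p 2.5e-25). VGLL1 was thus expressed far above VGLL4 in ABC-1, on a scale per gene length. VGLL3 fell slightly in ABC-1 (-0.30 ± 0.12, limma adjusted p 0.027) and was not called in UO-31 (-0.07).

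The known target genes of YAP and TEAD, a list of 21 genes, were set beside the 10 genes. OVCAR-4 had 20 of 21 tested lower, where 39% of all genes were, and a median log2 fold change of the list of -0.73, against -0.11 over all genes. ABC-1 had 16 of 18 lower, where 41.2% of all genes were, and a median of -0.87, against -0.14 over all genes. UO-31 had 12 of 20 lower, where 8.63% of all genes were, and a median of -0.49, against -0.04 over all genes. COLO 320DM had 4 of 11 lower, where 11.6% of all genes were, and a median of -0.08, against -0.01 over all genes. RKO had 4 of 15 lower, where 2.75% of all genes were, and a median of -0.08, against -0.02 over all genes. The count of the list fell in RKO without any 1 library, in UO-31 without either DMSO library and in COLO 320DM without either G007-LK library. The count of all genes fell there as well. The single gene that rose was GADD45A in COLO 320DM (0.51 ± 0.13). In COLO 320DM the genes that fell were AMOTL2, FJX1, CYR61 and CCDC80, and in RKO CTGF, CYR61, AMOTL2 and AXL. In UO-31 all calls of the list were lower without G007-LK replicate 1, where the median of all genes was -0.20. Without G007-LK replicate 2, where that median was 0.11, more were lower than higher.

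The largest changes of the targets were again in ABC-1. ANKRD1, an ankyrin repeat protein first known from heart muscle, had 4.95 and 5.31 RPKM with G007-LK, against 27.3 and 28.2 RPKM with DMSO (-2.33 ± 0.10). CTGF, a secreted matrix protein, had 6.27 and 5.12 RPKM with G007-LK, against 23.8 and 28.6 RPKM with DMSO (-2.11 ± 0.10). F3, tissue factor, had 19.9 and 18.9 RPKM with G007-LK, against 77.3 and 82.2 RPKM with DMSO (-2.01 ± 0.08). Each of these falls was larger than that of any of the 10 genes. AMOTL2, an angiomotin that binds YAP and stands in both the adaptor and the target list, was lower in all 5 lines. Its log2 fold change was -1.12 ± 0.04 (OVCAR-4), -1.11 ± 0.07 (ABC-1), -0.69 ± 0.13 (COLO 320DM), -0.55 ± 0.13 (UO-31) and -0.26 ± 0.05 (RKO).

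**Figure D5:**
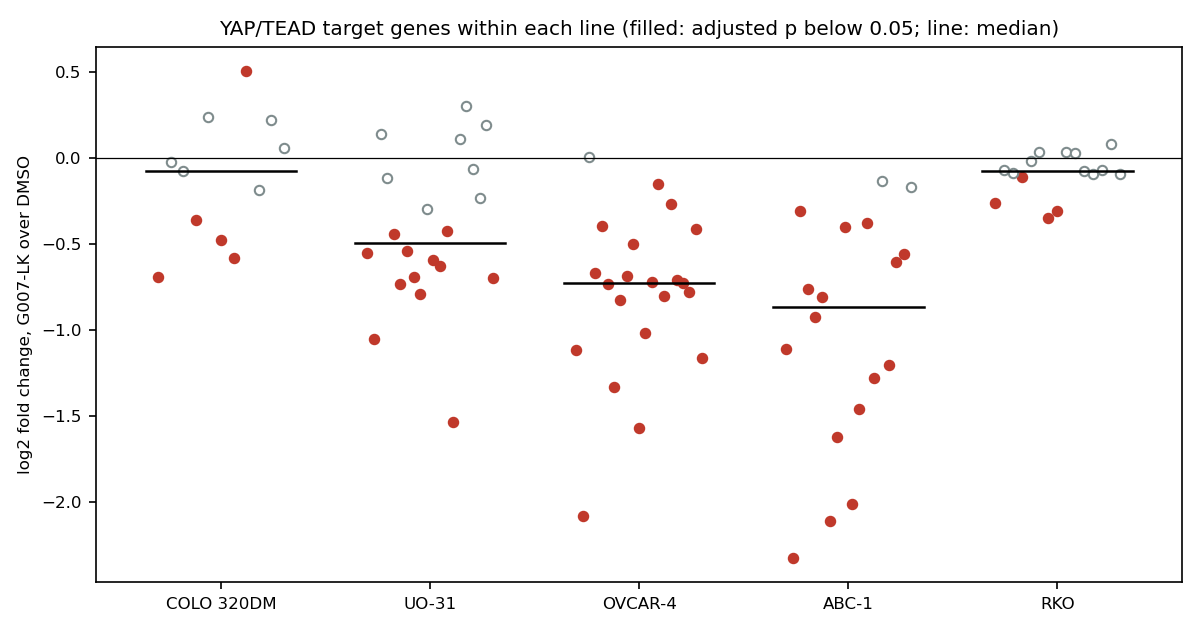
Log2 fold change of G007-LK over DMSO (vertical axis) of the YAP/TEAD target genes tested in each line, 1 point per gene, filled where the limma adjusted p was below 0.05, with a line at the median. From left to right the medians are -0.08, -0.49, -0.73, -0.87 and -0.08.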

How the data were processed

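The authors captured poly(A) RNA on oligo(dT) beads, sequenced it on an Illumina HiSeq and aligned the reads to the hg19 reference genes with SOAPaligner/SOAP2, allowing mismatches. For these tools no version is given in the sources used here. The deposited values are RPKM, 1 per gene and library. Missing values were set to 0, the 8 entries without a symbol (at most 0.00134% of the RPKM) were left out, and 371 repeated symbols were joined.

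Whole reads were recovered from the RPKM of 20915 of 20915 entries above 0, within 0.02 reads, and used in alternatives chosen after seeing the data (equal recovered reads and limma-voom, and a crossed replicate block). Genes were fitted on log2(RPKM + 0.5) with limma 3.58.1 (trend, robust, statmod 1.5.0, R 4.3.3), two-sided, with Benjamini-Hochberg adjustment over all genes and a threshold of 0.05. Fits were made within each line (4 libraries), over the 4 sensitive lines with the line as a block, for the difference between each pair of lines, and between lines over the 10 DMSO libraries. A gene needed a mean of 1 RPKM or more in the line, in each of the 4 lines, in both lines of the pair, or in at least 1 line with DMSO, in that order. The fits were also run on simulated data that held no shift of a whole library, and the outcome is not reported here. Other alternatives were pseudocounts of 0.1 and 1, a filter at 5 RPKM or none, median ratio rescaling, equal sums of RPKM, a replicate block, 1 fit over 20 libraries and leaving out each library or line.

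The 10 genes and the other lists were chosen with earlier results of these data known. Named genes are the 10, up to 3 called genes with the largest change per list, every gene behind a count of 5 or fewer, and the nearest gene and nearest of the 10 in pattern to each of the 10. The other deposited tables hold the authors' own log2 ratios and NOISeq probabilities and were not used. Gene positions are those of GENCODE on GRCh37, and promoters come from RefSeq on GRCh38.p14. Python 3.11.15 with pandas 2.3.3, numpy 2.4.6 and matplotlib 3.10.9 made the tables and figures.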

Additional observations from a re-analysis of the deposited data

Results flagged for a closer look

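The fold changes of 8 of the 10 genes differed between lines by the test of the difference itself (limma, adjusted over all genes and pairs). They gave 21 called of 96 tests, where 19.7% of all tests were called, so the count says little of the 10 genes as a group. For TEAD4 the difference was -1.17 for ABC-1 minus RKO, -0.64 for UO-31 minus RKO, 0.91 for COLO 320DM minus ABC-1, 0.96 for OVCAR-4 minus ABC-1 and 0.52 for UO-31 minus ABC-1. For TEAD1 it was -0.68 for ABC-1 minus RKO, -0.59 for OVCAR-4 minus RKO, 0.85 for COLO 320DM minus ABC-1 and 0.76 for COLO 320DM minus OVCAR-4. TEAD2 gave 0.38 for OVCAR-4 minus RKO, and TEAD3 gave 0.26 for ABC-1 minus RKO and -0.25 for OVCAR-4 minus ABC-1. WWTR1 gave -0.55 for ABC-1 minus RKO and -0.31 for OVCAR-4 minus RKO.

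For LATS2 the difference was -0.55 for ABC-1 minus RKO, -0.47 for OVCAR-4 minus RKO, 0.64 for COLO 320DM minus ABC-1 and 0.56 for COLO 320DM minus OVCAR-4. LATS1 gave 0.56 for COLO 320DM minus OVCAR-4, just under the threshold (limma adjusted p 0.0499). SAV1 gave -0.37 for ABC-1 minus RKO and 0.60 for COLO 320DM minus ABC-1. YAP1 and VGLL4 had no called difference.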

How the results depend on the processing

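The count of the 10 genes called within a line was stable in OVCAR-4 and ABC-1 (5 to 7 without 1 library) and moved in the others. In COLO 320DM (1 called) it was 0 with no filter, 2 with median ratio rescaling, 3 with equal sums, 3 with equal recovered reads, 4 with limma-voom and 0 to 3 without 1 library. In UO-31 (1 called) it was 3 with median ratio rescaling, 2 with equal sums, equal reads, limma-voom or 1 fit over 20 libraries, and 0 to 7 without 1 library. There the direction turned between the fits without G007-LK replicate 1 and without replicate 2 for YAP1 (-0.19 and 0.38), TEAD1 (-0.62 and 0.16), LATS1 (-0.39 and 0.27) and SAV1 (-0.28 and 0.27). In RKO (0 called) limma-voom called 2. Over the sensitive lines (4 called) it was 7 with equal reads and with limma-voom, 1 without OVCAR-4 and 2 without ABC-1. Of the tests between lines (21 called), 35 were called with median ratio rescaling, 37 with equal reads, 36 with limma-voom, 10 in 1 fit over 20 libraries and 14 to 42 without 1 library (33 and 42 without a UO-31 G007-LK library), and 5 of the 21 kept their call in every alternative (TEAD4 of ABC-1 against RKO, OVCAR-4 and COLO 320DM, TEAD1 of COLO 320DM against ABC-1, TEAD2 of OVCAR-4 against RKO).

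Same-numbered replicates did not deviate together (correlation of deviations from -0.25 in COLO 320DM and ABC-1 to 0.06 in RKO), so the numbers do not pair the libraries. With a replicate block COLO 320DM had 0 called and the differences 13, and with the numbers crossed COLO 320DM had 3.

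Over all genes, equal recovered reads raised the share of calls that were higher to 59.0% in COLO 320DM, 50.4% in UO-31, 49.5% in OVCAR-4, 50.4% in ABC-1, 63.1% in RKO and 48.2% over the sensitive lines, against 39.9%, 35.7%, 24.4%, 28.8%, 33.1% and 23.2%. Genes called ran from 479 to 5203 in COLO 320DM (2178 as reported), 53 to 7475 in UO-31 (1591), 2924 to 6934 in OVCAR-4 (6405), 4043 to 7817 in ABC-1 (6314), 11 to 778 in RKO (432) and 2856 to 5046 over the sensitive lines (4134). Limma-voom on the recovered reads called 4585 genes in COLO 320DM, 3522 in UO-31, 6471 in OVCAR-4, 7006 in ABC-1, 778 in RKO and 4715 over the sensitive lines. The cause of these shifts was not tested.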
